A study of Caenorhabditis elegans with 12 samples.

Results

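The comparison described here set MT KO larvae raised with cadmium (Cd) against wild-type larvae raised with Cd. The MT KO strain carries mtl-1,mtl-2(zs1), which removes both metallothionein genes of Caenorhabditis elegans, and the wild type is the laboratory strain N2. Both strains grew at 20 °C on agar plates with the bacterium OP50 as food, both received 30 µM Cd, and RNA was taken from whole animals at the L4 stage, the last larval stage. The arrays were chosen by their titles, and 6 of the 12 arrays of the series belong here, 3 MT KO with Cd and 3 wild type with Cd. The other 6 arrays hold 3 MT KO and 3 wild-type samples raised without Cd, and they served to show what the strain difference was in the absence of the metal. Every difference is MT KO minus wild type on the log2 scale of the deposited values, so a difference of 1 is a doubling of signal. The MT KO mutation is in every cell of the animal, and RNA of all tissues was measured together.

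Metallothioneins are small, cysteine-rich proteins that bind metal ions such as Cd, zinc and copper through their thiol groups. In C. elegans mtl-1 and mtl-2 are transcribed mainly in the intestine, and Cd is the best known inducer of both. The worm also handles Cd through phytochelatins, thiol peptides that phytochelatin synthase makes from glutathione, and through cdr-1, a Cd-responsive gene of the intestine. The L4 stage ends with the last moult, when a new adult cuticle is made. It is also the stage at which the hermaphrodite germline makes sperm before it turns to oocytes.

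All 22548 probe sets other than the manufacturer's controls were compared. A probe set was called when its adjusted p in limma was under 0.05, with Benjamini-Hochberg adjustment over all of them. The labels number the arrays within a group without saying that they came from separate cultures, so a p-value rests on how far these arrays spread, and that spread may be technical. Arrays of a group correlated at 0.991 or more. The signal of 3' over 5' control probes, a sign of RNA integrity and labelling, averaged 0.917 ± 0.167 log2 units in MT KO with Cd and 1.13 ± 0.098 in wild type with Cd (SD, n = 3 each). With that signal as a covariate 1928 probe sets were called, among them 1704 of the 1930 called without it. Wild type without Cd had 1 array at 2.81, above the 1.28 and 1.84 of its other arrays. Since all 12 arrays share 1 estimate of the spread, that array enters the error of the tests with Cd too, and 2139 probe sets were called with Cd when it was left out. No detection calls were used, and the median of all values, 4.03, serves below as the level under which signal may be background.

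The deleted genes came first among the falls. For mtl-2 the probe set with the largest difference read 3.64, 3.62 and 3.61 in MT KO with Cd, against 11.32, 11.38 and 11.60 in wild type with Cd. For mtl-1 the readings were 3.83, 3.96 and 4.26 in MT KO with Cd, against 9.69, 9.58 and 10.29 in wild type with Cd. The strains did not overlap at either gene, and the MT KO readings of these probe sets lay around the background level. The log2 differences were -7.81 ± 0.22 for mtl-2 (SE, adjusted p = 2.55e-07) and -5.84 ± 0.21 for mtl-1 (adjusted p = 2.15e-06). These correspond to 224-fold and 57.1-fold less signal, sizes that rest on MT KO readings near background. The other probe sets for mtl-2 differed by -7.51 and -4.40, the second with 5.23, 4.93 and 4.95 in MT KO with Cd, above the background level, against 9.87, 8.93 and 9.50 in wild type with Cd. The difference at mtl-1 was larger with Cd than without it, where it was -1.18 (adjusted p = 0.0291), and the interaction of strain and Cd was -4.66 (adjusted p = 0.000162). For mtl-2 the interaction was not called in any of its probe sets, with values from -0.21 to 0.40.

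**Figure D1:**
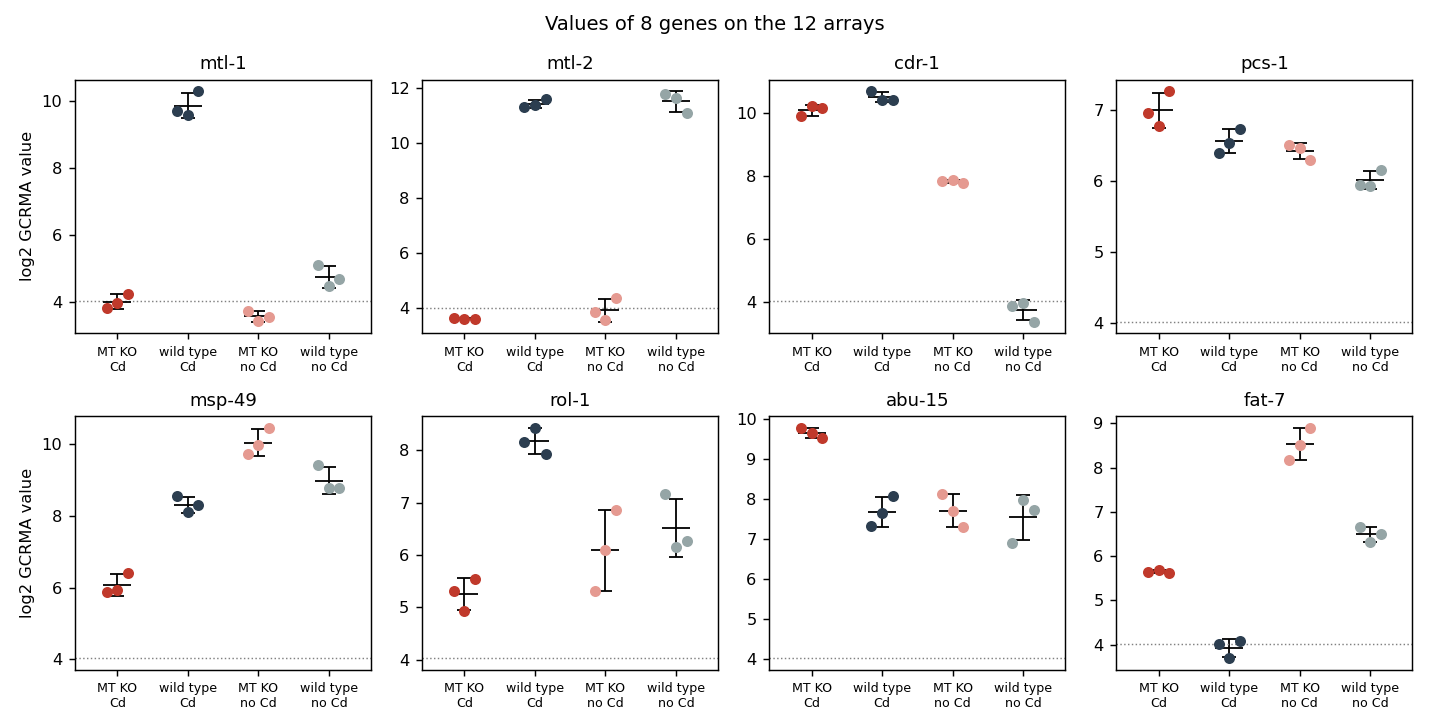
Log2 GCRMA value of 8 genes on each of the 12 arrays. Points are arrays, grouped as MT KO with Cd, wild type with Cd, MT KO without Cd and wild type without Cd, bars are the mean ± SD of 3 arrays, and the dotted line is the median of all values, 4.03. MT KO readings of mtl-2 with Cd sit at 3.61 to 3.64 and wild-type readings with Cd at 11.32 to 11.60, while cdr-1 lies between 9.90 and 10.70 in both strains with Cd.

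The other genes listed for Cd handling gave 1 call between the strains with Cd. Phytochelatin synthase, pcs-1, read 6.96, 6.78 and 7.27 in MT KO with Cd, against 6.41, 6.54 and 6.74 in wild type with Cd. Its difference of 0.44 ± 0.13 had an adjusted p of 0.0758 and a 95% interval from 0.15 to 0.74. The call for pcs-1 turned on single settings: without MT KO with Cd replicate 2 its adjusted p was 0.0416. It was 0.0459 with each array centred on its median and 0.0413 with a filter on dim probe sets. The ABC transporter gene hmt-1, named for the fission yeast transporter that carries phytochelatin into the vacuole, differed by 0.14 ± 0.13 (adjusted p = 0.657, interval -0.15 to 0.43). Glutathione synthesis genes gave -0.13 for gcs-1 (adjusted p = 0.62) and -0.25 for gss-1 (adjusted p = 0.307). None of the 7 phytochelatin, glutathione and efflux genes listed was called, where 8.56% of all probe sets were.

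A further list held the cdr genes, the Cd-responsive family that includes cdr-1, together with the numr genes. Of its 6 measured members 1 was called (16.7%, beside 8.56% of all probe sets). It was cdr-6, with 8.20, 8.29 and 8.50 in MT KO with Cd and 7.95, 7.91 and 7.86 in wild type with Cd. That is a rise of 0.42 ± 0.07 (adjusted p = 0.00547), and its strains did not overlap. cdr-1 itself read 9.90, 10.22 and 10.16 in MT KO with Cd, against 10.70, 10.41 and 10.43 in wild type with Cd. The difference of -0.41 ± 0.15 was not called (adjusted p = 0.149, interval -0.76 to -0.07), but was called without wild type without Cd replicate 3, with an adjusted p of 0.0396. Without Cd the same gene differed by 4.10 (adjusted p = 2.43e-06), and the interaction was -4.51 (adjusted p = 7.36e-05). The strain difference at cdr-1 was therefore large in animals without Cd and small in animals with it. Wild type without Cd read 3.88, 3.95 and 3.37, below the background level. The sizes of the difference without Cd and of the interaction rest on those readings.

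None of 21 zinc transporter and zinc sensor genes was called with Cd, where 8.56% of all probe sets were, and their median difference was -0.10. The list averaged 6.01 ± 0.024 in MT KO with Cd and 6.14 ± 0.025 in wild type with Cd (SD, n = 3 each), without overlap. Averages of many lists did not overlap with Cd, that of chemoreceptor genes among them, with a difference of 0.03. The zinc list had 2 falls without MT KO with Cd replicate 3, and 1 without wild type with Cd replicate 2, MT KO without Cd replicate 3 or wild type without Cd replicate 3. The nearest to the threshold was cdf-2, a zinc transporter of the intestine, with 5.40, 5.50 and 5.82 in MT KO with Cd and 6.17, 5.91 and 6.42 in wild type with Cd. Its difference was -0.60 ± 0.16 (adjusted p = 0.051), and its interaction, -1.79, was called (adjusted p = 0.0027), since without Cd it was 1.20 higher in MT KO. Of 16 iron, divalent metal and heme genes 1 was called: hrg-1, a heme transporter, rose by 0.42 (adjusted p = 0.0102). The ferritin genes ftn-1 and ftn-2 differed by 0.27 and 0.13, without a call. In that list 2 falls were called without MT KO with Cd replicate 3 and 1 without MT KO without Cd replicate 1.

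Beyond these genes the strains differed widely with Cd. MT KO animals were called higher at 817 probe sets (3.62% of those tested) and lower at 1113 (4.94%), 1930 in all (8.56%), which stood for 1682 genes. Of the calls, 178 rises and 490 falls were at least 2-fold, and 8 rises and 35 falls were at least 4-fold. Falls were thus the more numerous calls and the larger ones. The excess of falls depended on how arrays were scaled. With each array centred on its median, 51.6% of the calls were rises, against 42.3% as deposited, and the median difference over all probe sets, 0.018 as deposited, was then 0.063. The 3 MT KO arrays lay wholly above or wholly below the 3 wild-type arrays at 5831 probe sets (25.9%), 3233 above and 2598 below. Leaving out wild type with Cd replicate 1 brought the count of calls to 1155, 447 higher and 708 lower.

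The chemoreceptor gene srw-85 led the 15 largest rises, with 6.52, 6.25 and 6.47 in MT KO with Cd and 2.81, 2.83 and 2.75 in wild type with Cd. The strains did not overlap, and the difference was 3.62 ± 0.18 (adjusted p = 1.91e-05), a size that rests on wild-type readings below the background level. Without Cd it was 2.78, and the interaction was not called (adjusted p = 0.113), so srw-85 marked the strain with or without the metal.

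The next rises were idpp-12, F20B10.3, W08E12.2, nspb-12, srr-6, abu-15, T25E4.1, piit-1, idpp-9, F13A7.11, nspb-11, E01G6.1, pqn-74 and abu-8, with differences from 1.90 to 2.41. The idpp genes are named for disordered proteins of the pharynx, the abu and pqn genes encode proteins rich in glutamine and asparagine, and the nspb genes encode short nematode-specific peptides. idpp-12 read 9.05, 8.90 and 9.25 in MT KO with Cd, against 6.48, 6.62 and 6.87 in wild type with Cd, a difference of 2.41 ± 0.22 (adjusted p = 0.000464). nspb-11 read 6.94, 6.85 and 6.96 in MT KO with Cd, against 4.82, 4.79 and 5.34 in wild type with Cd. abu-15 read 9.78, 9.65 and 9.52 in MT KO with Cd, against 7.33, 7.65 and 8.09 in wild type with Cd. Wild type with Cd replicate 3 was the closest to MT KO at these 3 genes, and every MT KO array lay above it, as the rule for naming them required. Of the 15 rises 10 also had a called interaction of strain and Cd, as 326 of all 817 called rises did (39.9%) and 5.45% of all probe sets. The choice by size with Cd favours such calls, so nothing is read from that count. For 4 of the 15, srw-85 among them, the wild-type mean lay below the background level. The call of srr-6 (adjusted p = 0.016) was lost without MT KO with Cd replicate 3 or wild type with Cd replicate 1, at 0.0507 and 0.0678. The call of T25E4.1 (adjusted p = 0.0191) was lost without replicate 1 or 3 of MT KO with Cd or replicate 1 or 2 of wild type with Cd, at 0.0552 to 0.0776.

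The 15 largest falls, after mtl-2 and mtl-1, were rol-1, E01G4.6, T16A9.5, col-49, wrt-6, col-71, F27C1.1, dao-4, nsph-3.2, col-63, mltn-12, msp-49 and Y51H7C.1, with differences from -2.91 to -2.25. The cuticle collagen gene rol-1 read 5.31, 4.93 and 5.54 in MT KO with Cd, against 8.17, 8.43 and 7.93 in wild type with Cd. Its difference was -2.91 ± 0.39 (adjusted p = 0.00218), 7.53-fold. For E01G4.6 the readings were 6.60, 6.53 and 7.05 in MT KO with Cd and 9.37, 9.82 and 9.50 in wild type with Cd. T16A9.5 stood at 3.26, 3.59 and 2.86 in MT KO with Cd, below the background level, and at 6.04, 6.04 and 5.87 in wild type with Cd. The strains did not overlap at any of the 15, which their selection required. The MT KO mean was below the background level for 6 of them. A called interaction was found for 7, as for 587 of all 1113 called falls (52.7%) and 5.45% of all probe sets. The choice by size with Cd favours such calls here too. The call of col-63 (adjusted p = 0.0312) was lost without any 1 of the 6 arrays with Cd, at 0.0655 to 0.0996, and without MT KO without Cd replicate 2, at 0.0517.

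Genes of the pharynx, the muscular feeding organ with its own cuticle, were higher in MT KO with Cd. Of 17 pharynx markers 8 rose and none fell, with a median of 0.47, beside 0.018 over all probe sets. For this count and those of the groups that follow, 3.62% of all probe sets were called higher and 4.94% lower. The transcription factor gene pha-4, needed to specify the pharynx, read 5.37, 5.59 and 5.35 in MT KO with Cd, against 4.43, 4.67 and 4.53 in wild type with Cd, a rise of 0.89 ± 0.10 (adjusted p = 0.00086). The gland gene phat-2 rose by 1.18 ± 0.09 (adjusted p = 0.0002). The muscle genes tnt-4, tnc-2 and myo-5 rose by 0.72, 0.42 and 0.86, while myo-1 and myo-2 gave 0.42 and 0.47 with adjusted p-values of 0.115 and 0.0911. All 17 differences were above 0, as were those of 1038 of 1146 chemoreceptor genes, which had a median of 0.02. MT KO arrays lay wholly above wild-type arrays at 13 of the pharynx markers, beside 3233 of all 22548 probe sets. Without MT KO with Cd replicate 1 the count of rises was 5. In whole-animal RNA, more cells of a type and more RNA per cell cannot be told apart, here or in the groups that follow.

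Of the 11 abu genes measured, 6 rose and none fell, with a median of 1.26. They were first described as induced when the unfolded protein response is blocked, and several encode components of the pharyngeal cuticle. abu-15, abu-8, abu-6, abu-11, abu-10 and abu-14 rose by 1.97, 1.90, 1.82, 1.80, 1.67 and 1.26. Of the others, abu-2, abu-3 and abu-4 read below the background level in both strains, and abu-13 gave -0.81 (adjusted p = 0.0787). The sequences of abu genes are alike, so their probe sets may share signal. The 6 rises stood under every alternative that left out an array or changed the scaling.

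**Figure D2:**
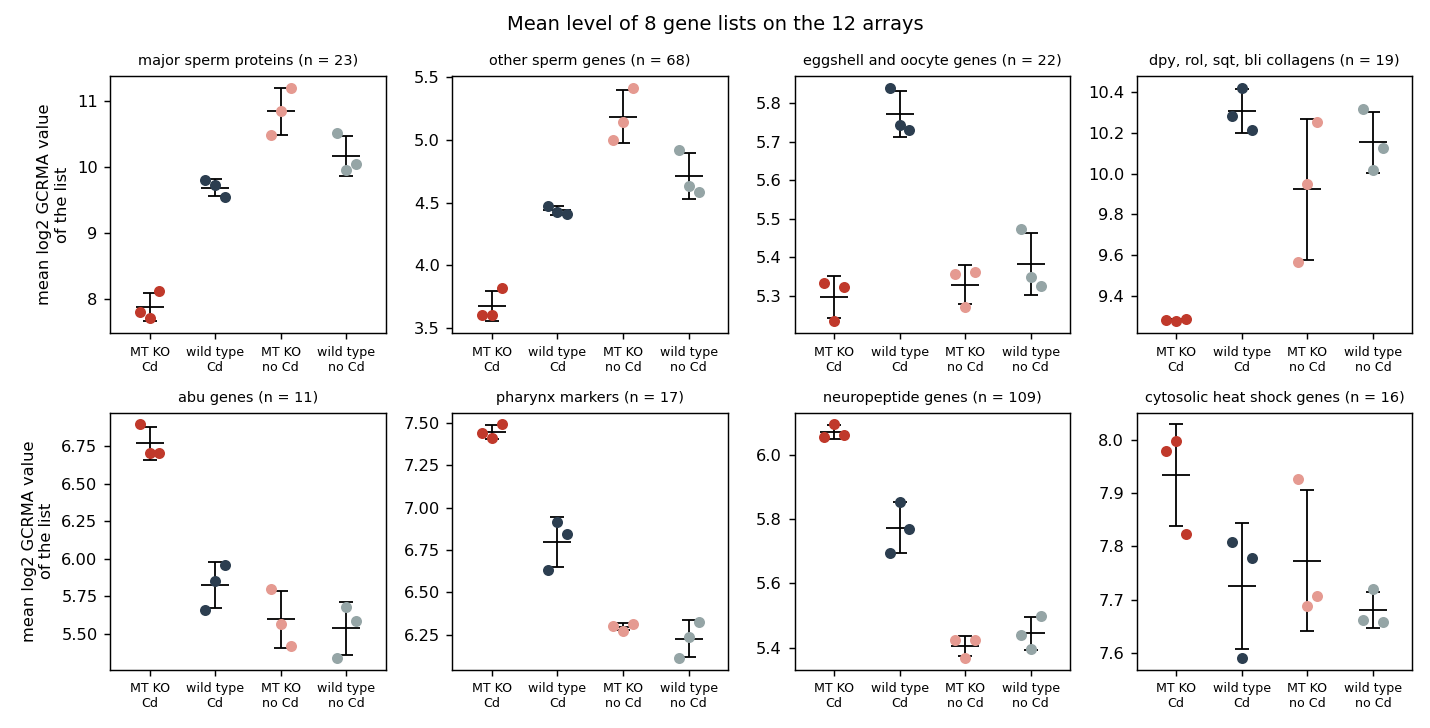
Mean log2 GCRMA value of 8 gene lists on each array, with 1 probe set per gene. Points are arrays in the order MT KO with Cd, wild type with Cd, MT KO without Cd and wild type without Cd, and bars are the mean ± SD of 3 arrays. Major sperm proteins average 7.88 in MT KO with Cd, against 9.69 in wild type with Cd, and without Cd 10.8 in MT KO, against 10.2 in wild type.

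Neuronal genes leaned the same way with smaller differences. Neuropeptide and insulin-like peptide genes, which encode secreted signals, had 27 rises and 2 falls among 109, with a median of 0.31. The list averaged 6.06, 6.10 and 6.06 on the MT KO arrays with Cd and 5.69, 5.85 and 5.77 on the wild-type arrays with Cd, without overlap. Many other lists did not overlap either, chemoreceptor genes with a difference of 0.03 among them. nlp-13 read 7.33, 7.30 and 7.34 in MT KO with Cd, against 6.50, 6.56 and 6.41 in wild type with Cd, a rise of 0.84 ± 0.06 (adjusted p = 0.000245). The FMRFamide-like peptide genes flp-2 and flp-3 rose by 0.82 and 0.76. The falls were ins-11 at -0.68 and nlp-2 at -0.24. Of 25 general neuron markers 6 rose and none fell, with a median of 0.26, among them unc-119 at 0.52 (adjusted p = 0.00571), the peptide-processing genes egl-3 and egl-21 at 0.41 and 0.47, and ida-1, a dense-core vesicle gene, at 0.43.

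The number of neuropeptide calls was unsteady. It was 7 without wild type with Cd replicate 1, 16, 12 and 14 without replicates 1, 2 and 3 of MT KO with Cd, 13 without wild type with Cd replicate 3, and 14 when the 6 arrays were fitted alone. The 6 neuron-marker rises likewise became 2 to 3 without MT KO with Cd replicate 1 or 2, or wild type with Cd replicate 1 or 3. The 2 falls became 1 in 8 of the 12 fits without 1 array. In the main fit 101 of the 109 peptide genes and 23 of the 25 markers had a difference above 0. Such counts were also common in lists with smaller medians. Above 0 were 1038 of 1146 chemoreceptor genes, with a median of 0.02, and 206 of 254 nuclear hormone receptors, with a median of 0.05. Of 74 ribosomal protein genes 42 were above 0.

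The cuticle collagens that give dpy, rol, sqt and bli mutants their body shapes were lower in MT KO with Cd. Of 19 measured, 11 fell and none rose, with a median of -0.96. The furrow collagen dpy-7 read 8.79, 8.86 and 8.90 in MT KO with Cd, against 9.88, 10.09 and 9.79 in wild type with Cd, a fall of 1.07 on the log2 scale (adjusted p = 0.000802). Its partners dpy-2, dpy-3, dpy-8 and dpy-9 differed by -1.22, -1.40, -1.50 and -1.04, all called, and bli-1 and bli-2, collagens of the adult cuticle's struts, by -2.12 and -2.19, also called. sqt-1, sqt-3 and rol-6 gave -0.82, -0.31 and -0.53 without a call, and dpy-14 gave 0.01 with both strains below the background level. Over the list the MT KO arrays with Cd averaged 9.28, 9.27 and 9.29, against 10.29, 10.42 and 10.22 in wild type with Cd.

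Without Cd the same list averaged 9.57, 9.95 and 10.26 on the MT KO arrays, against 10.32, 10.02 and 10.13 on the wild-type arrays, which overlap. The interaction was called for 6 of the 19 collagens, where 5.45% of all probe sets had such a call. dpy-7 was among the 6, with -1.05 (adjusted p = 0.0053). The wide spread of the 3 MT KO arrays without Cd is part of the error of every interaction value for these genes.

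Moulting genes showed 7 falls and 1 rise among 21, with a median of -0.26. The protease inhibitor gene mlt-11 read 9.48, 9.64 and 9.34 in MT KO with Cd, against 10.67, 10.47 and 10.52 in wild type with Cd, a fall of 1.06 (adjusted p = 0.000625). The zona pellucida protein gene noah-2 differed by -1.02, and nhr-23, the nuclear receptor that drives moulting cycles, by -0.59 (adjusted p = 0.0252). The rise was mlt-7, a peroxidase of cuticle cross-linking, with 1.12 ± 0.20 (adjusted p = 0.00871). The 7 falls became 4 without MT KO with Cd replicate 1, wild type with Cd replicate 1 or wild type with Cd replicate 3, and a second rise was called without MT KO with Cd replicate 3.

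The large families of epidermal genes went both ways. Of 128 numbered col genes 12 fell, led by col-49 at -2.57 and col-71 at -2.50, and 10 rose, led by col-41 at 1.54 and col-54 at 1.25. The median was 0.02, close to that of all probe sets. Of 79 hedgehog-related and patched-related genes, secreted proteins and receptors of the epidermis, 12 fell and 8 rose, with wrt-6 at -2.54, wrt-1 at -1.88, grl-4 at 1.52 and grd-14 at 1.50. Removing single arrays took the col rises to 5 and the hedgehog-related rises to 2 at the lowest, both without wild type with Cd replicate 1. The falls became 7 in both families without that array, and also 7 for col without MT KO with Cd replicate 3 and for hedgehog-related genes without MT KO with Cd replicate 2. Among 12 hypodermis and seam markers 2 fell, dpy-7 and che-14, and grd-10 rose by 0.70 (adjusted p = 0.026), a call lost without any 1 of the MT KO arrays with Cd or without wild type with Cd replicate 1 or 2, at 0.0567 to 0.101.

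**Figure D3:**
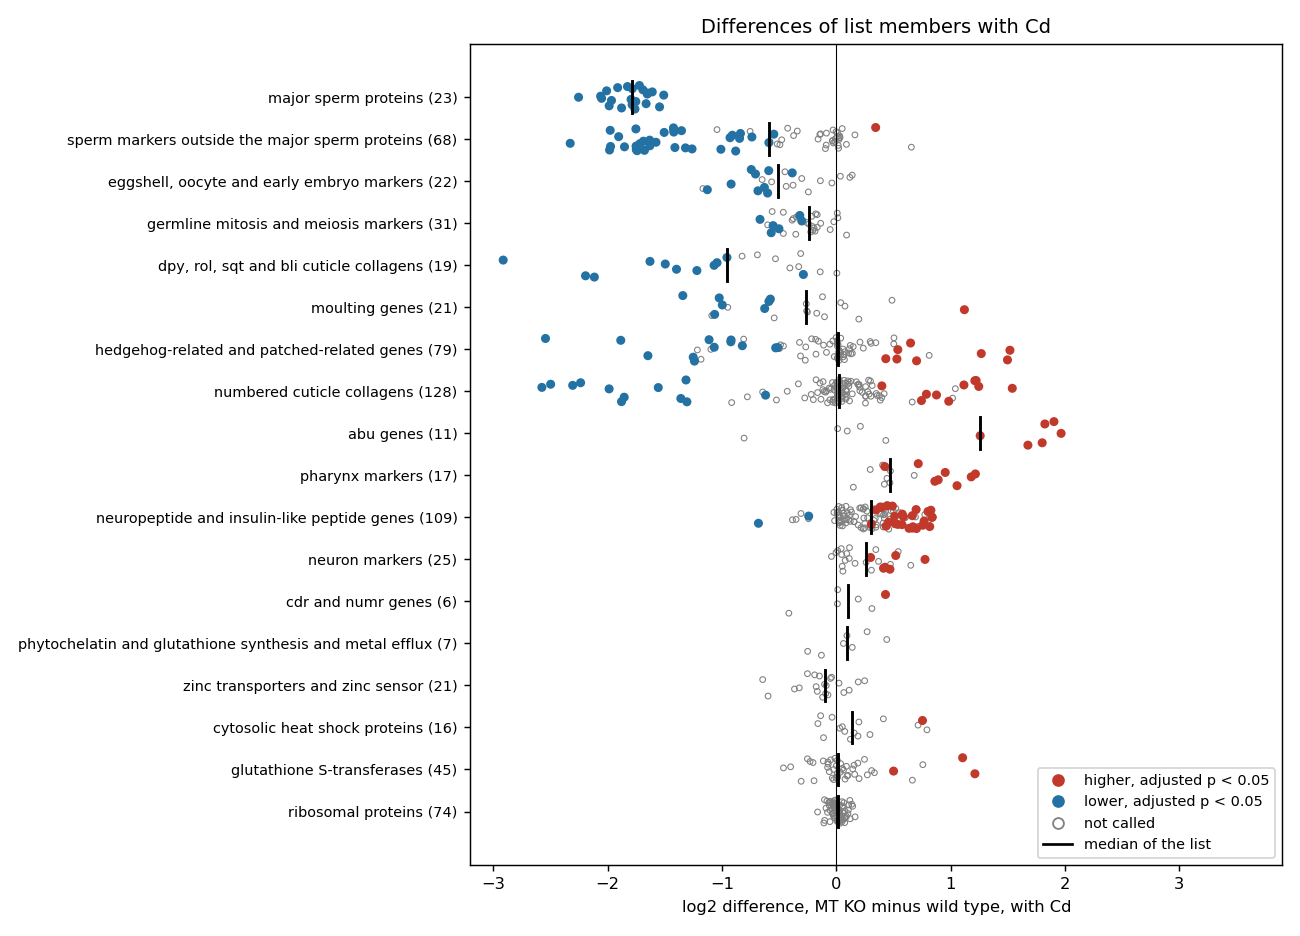
Log2 difference, MT KO minus wild type with Cd, of each member of 18 gene lists, with the number of genes in brackets. Filled points are called higher (red) or lower (blue), open points are not called, and vertical bars are list medians. All 23 major sperm protein genes lie between -2.25 and -1.51, and the 74 ribosomal protein genes between -0.16 and 0.16.

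The major sperm protein genes fell as a block, and about as many other sperm genes fell as were not called. Major sperm proteins are the cytoskeletal proteins of nematode sperm, and all 23 of their genes measured were lower in MT KO with Cd, with differences from -2.25 for msp-49 to -1.51 for msp-53 and a median of -1.78. msp-49 read 5.87, 5.92 and 6.41 in MT KO with Cd, against 8.55, 8.11 and 8.30 in wild type with Cd (adjusted p = 0.000892). The genes are near-identical copies whose probe sets can share signal, so the 23 values are not 23 separate measurements. All 23 were called under every alternative run, including the 0.01 threshold.

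Of 68 other sperm genes 33 fell, 1 rose and 34 were not called, with a median of -0.59 and 13 differences above 0. The sperm phosphatase genes gsp-3 and gsp-4 differed by -1.74 and -1.68. gsp-4 read 4.77, 4.82 and 4.79 in MT KO with Cd, against 6.67, 6.52 and 6.22 in wild type with Cd (adjusted p = 0.0002). The spermatogenesis genes spe-18, spe-26, spe-46 and spe-11 differed by -1.69, -1.63, -1.90 and -1.58, and the transcription factor gene spe-44 by -0.74. The rise was try-5, a seminal protease of males, with 0.34, and no rise was left when any 1 wild-type array with Cd was removed. Only 37 of the 68 had a mean above the background level in either strain with Cd.

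Without Cd the medians of the sperm lists lay on the other side, with few calls. The median of the 23 major sperm protein genes was 0.63 without Cd, and none of them was called there. The 68 other sperm genes had a median of 0.51 without Cd. Of these, 6 were called higher in MT KO, where 1.65% of all probe sets were called. The interaction was called for all 23 and for 34 of the 68, each with a negative sign, beside 5.45% of all probe sets. By array, the major sperm protein list averaged 7.80, 7.72 and 8.12 in MT KO with Cd and 9.80, 9.73 and 9.54 in wild type with Cd. Without Cd the averages were 10.49, 10.85 and 11.20 on the MT KO arrays, against 10.51, 9.95 and 10.04 on the wild-type arrays, which overlap.

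Genes of oocytes and eggshell were lower too, by smaller amounts. Of 22 listed, 9 fell and none rose, with a median of -0.51. The member with the smallest adjusted p, egg-6, is named with the egg genes but is known for a leucine-rich repeat protein that keeps epithelial tubes open. It read 5.87, 5.73 and 5.59 in MT KO with Cd, against 6.71, 6.62 and 6.63 in wild type with Cd (adjusted p = 0.000819). The eggshell proteoglycan genes cpg-1 and cpg-2 differed by -0.68 and -1.13, the yolk receptor gene rme-2 by -0.59 and the maternal regulators pos-1 and spn-4 by -0.71 and -0.74, all called. The 9 falls became 5 without MT KO with Cd replicate 1 or 2, and 3 without wild type with Cd replicate 1.

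Of 31 germline mitosis and meiosis genes 6 fell and none rose, with a median of -0.24. The RNA-binding regulator gld-1 read 8.28, 8.13 and 8.02 in MT KO with Cd, against 8.65, 8.67 and 8.83 in wild type with Cd, a difference of -0.57 (adjusted p = 0.0023). The P granule genes pgl-1 and pgl-3 differed by -0.30 and -0.67. Among 31 DNA replication and cell cycle genes the 4 falls were the mitotic cyclin genes cyb-1, cyb-2.1 and cyb-2.2, at -0.47, -0.69 and -0.66, and psf-2 at -0.46, and without MT KO with Cd replicate 2 the falls were 2. The 5 vitellogenin genes, which encode yolk proteins made in adults, were not called, and only vit-1 had a mean above the background level with Cd. Among 26 histone genes the 1 call was his-70, at -1.20, lost without wild type with Cd replicate 1 (adjusted p = 0.0583).

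Body wall muscle and intestine markers gave no calls, with 17 and 14 genes and medians of 0.13 and 0.05, though 1 or 2 intestine markers were called without MT KO with Cd replicate 3 or wild type without Cd replicate 1 or 3. The muscle list averaged 9.87 ± 0.064 in MT KO with Cd and 9.76 ± 0.022 in wild type with Cd (SD, n = 3 each), and the intestine list 8.38 ± 0.081 in MT KO with Cd and 8.25 ± 0.018 in wild type with Cd. Neither list overlapped between the strains with Cd, so these averages were slightly higher in MT KO too. Listed genes of sperm, oocytes, pharynx and neurons, and the dpy, rol, sqt and bli collagens, thus differed on the same 3 MT KO arrays. The 12 hypodermis and seam markers went both ways, with a median of -0.03. What part the cell makeup of the animals had in the calls of other genes was not tested.

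Heat shock genes, which Cd is known to induce in the worm, had 1 call among 16 cytosolic members (6.25%, near the 8.56% of all probe sets). The list averaged 7.93 ± 0.096 in MT KO with Cd and 7.73 ± 0.119 in wild type with Cd (SD, n = 3 each), without overlap. The closest arrays averaged 7.82 in MT KO and 7.81 in wild type, and many lists did not overlap. The call was hsp-43, with 6.64, 6.82 and 6.46 in MT KO with Cd and 5.86, 6.02 and 5.78 in wild type with Cd (0.75 ± 0.16, adjusted p = 0.0163). It was lost without replicate 1 or 2 of MT KO with Cd or replicate 1 or 3 of wild type with Cd, at 0.051 to 0.0613. The small heat shock gene hsp-16.2 read 8.82, 8.91 and 8.58 in MT KO with Cd, against 8.48, 7.10 and 8.35 in wild type with Cd. Its difference of 0.79 had an interval from 0.02 to 1.57 and an adjusted p of 0.24. The inducible hsp-70 gave 0.41 (interval -0.54 to 1.36, adjusted p = 0.7). Wild type with Cd replicate 2 was the lowest array for both genes, and the strains overlapped for hsp-70 only.

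Of 45 glutathione S-transferases, which join glutathione to electrophiles, 3 rose: gst-22 by 1.21, gsto-3 by 1.10 and gst-28 by 0.50. gsto-3 gave 0.88 without Cd, where it was not called, and its interaction was not called either (adjusted p = 0.79). Of 30 antioxidant and thiol redox genes 3 rose, the glutathione peroxidase genes gpx-3 and gpx-5 by 0.96 and 1.14 and the thioredoxin gene trx-3 by 0.70. UDP-glucuronosyltransferases, enzymes of conjugation, had 5 rises and 3 falls among 64, led by ugt-44 at 1.30 and ugt-18 at 1.14. Cytochrome P450 genes had 1 rise, cyp-13A5 at 1.28, and 4 falls among 73. Of 49 ABC transporters 2 rose and 3 fell, pgp-14 by 1.34 at one end and wht-4 at -1.15 at the other. These shares of calls, 6.67% to 12.5%, lie around the 8.56% of all probe sets.

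These small counts moved when single arrays were left out. The glutathione S-transferase rises became 1 without replicate 2 or 3 of MT KO with Cd or replicate 1 or 3 of wild type with Cd. The antioxidant rises became 1 without replicate 1 or 3 of MT KO with Cd or replicate 1 of wild type with Cd. The P450 falls became 2 without those same 3 arrays or MT KO without Cd replicate 2, and the P450 rises 2 without MT KO with Cd replicate 3 or wild type with Cd replicate 2. The UDP-glucuronosyltransferase falls became 1 without MT KO with Cd replicate 3 or wild type with Cd replicate 1 or 3, and 5 without MT KO without Cd replicate 3. The ABC transporter rises became 1 without MT KO with Cd replicate 2 or wild type with Cd replicate 1 or 2.

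None of 12 mitochondrial stress genes was called, and of 19 endoplasmic reticulum chaperone and sensor genes pdi-1 and pdi-2 fell, at -0.21 and -0.46 (adjusted p = 0.0383 and 0.0465). Those 2 calls became 0 or 1 in 10 of the 12 fits without 1 array, the exceptions being wild type without Cd replicates 1 and 3. Of 33 proteasome subunits 2 fell: rpn-6.2 at -0.85 and rpt-3 at -0.34, with 1 of them left in 6 of the 12 fits without 1 array. The ribosomal protein genes, 74 in number, gave no call and a median of 0.01. The respiratory chain and ATP synthase list had 1 call among 48, cyc-2.2, a cytochrome c gene, at -1.50 (adjusted p = 0.000914), and none of 18 vacuolar ATPase genes was called. Up to 3 respiratory chain rises, without wild type with Cd replicate 2, were called when single arrays were left out.

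Genes of defence were called in both directions. Of 70 lysozymes and other immune effectors 8 rose and 5 fell (18.6%, beside 8.56% of all probe sets). Among them were lys-3 at 1.47 (adjusted p = 0.0143), ilys-3 at 1.08 and the saposin-like gene spp-13 at -1.60. The 8 rises became 2 without wild type with Cd replicate 1, and 3 to 4 without MT KO with Cd replicate 1 or 2 or wild type with Cd replicate 3. The 5 falls became 1 without wild type with Cd replicate 1 and 3 in 7 other fits without 1 array. C-type lectins, secreted sugar-binding proteins, had 8 rises and 9 falls among 220 (7.73%, near the 8.56% of all probe sets), with a median of 0.02. The lectin rises became 4 without replicate 3 of either strain with Cd and 5 without wild type with Cd replicate 1 or 2. clec-60 read 5.11, 5.38 and 5.26 in MT KO with Cd, against 6.97, 7.48 and 6.84 in wild type with Cd, a difference of -1.84 ± 0.16 (adjusted p = 0.000359). Without Cd it read below 3 in every array of both strains.

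Nuclear hormone receptors, ligand-regulated transcription factors, had 13 rises and 3 falls among 254 (6.30%, below the 8.56% of all probe sets), with nhr-247 at 1.22 and nhr-260 at 0.95. The count of rises was 5 without wild type with Cd replicate 1 and 6 to 8 in 5 other fits without 1 array, and the falls became 0 or 1 in 5 such fits. Of 9 dod genes, named for regulation downstream of DAF-16, 1 was called: dod-22 rose by 1.16 with Cd and gave -0.88 without Cd, and its interaction of 2.03 was called (adjusted p = 0.012). Its call with Cd was lost without replicate 1 or 3 of either strain with Cd, at 0.064 to 0.0715. Among 1146 chemoreceptor genes 7 rose and 2 fell (0.79%), and among 395 F-box and MATH-BATH genes 5 rose and 6 fell (2.78%). Both shares were below 8.56%, and most members of these families read below the background level. The chemoreceptor rises became 4 without wild type with Cd replicate 1 and 11 without MT KO with Cd replicate 3. The F-box and MATH-BATH rises became 2 or 3 without MT KO with Cd replicate 2 or wild type with Cd replicate 1 or 2, and the falls 10 without wild type with Cd replicate 3.

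In metabolism a few genes of each pathway were called. Of 61 fatty acid activation and beta-oxidation genes 9 fell and 2 rose. acdh-8, an acyl-CoA dehydrogenase gene, read 4.64, 4.62 and 4.84 in MT KO with Cd, against 6.54, 6.25 and 6.63 in wild type with Cd (adjusted p = 0.000513). Without Cd it gave 0.79, which was not called (adjusted p = 0.0549). The acyl-CoA synthetase genes acs-10 and acs-6 differed by -1.52 and -1.33 with Cd and by 0.49 and 0.40 without Cd. The value of acs-10 without Cd was not called (adjusted p = 0.158). The 9 falls became 5 without wild type with Cd replicate 1 or 2, and the 2 rises 1 without MT KO with Cd replicate 1, wild type with Cd replicate 3 or wild type without Cd replicate 2. Of 49 glycolysis, TCA and glyoxylate cycle genes pck-3 and pfk-1.2 fell, both at -1.11, and pfk-1.1 rose by 0.45. The falls became 1 without replicate 1 or 2 of either strain with Cd, and the rises ranged from 0 to 3 over 6 fits without 1 array.

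Among 19 methionine cycle and transsulfuration genes 4 rose and 2 fell. The falls were sams-5, an S-adenosylmethionine synthetase gene, at -1.14 and cbs-2, a cystathionine beta-synthase gene, at -1.04, and the rises were 0.24 for pmt-1 and 0.28 for pmt-2, methyltransferases of phosphocholine synthesis, 0.37 for mtrr-1 and 0.50 for cysl-3. The 4 rises became 1 without MT KO with Cd replicate 1 and 2 without MT KO with Cd replicate 3 or wild type with Cd replicate 2 or 3. No call was made among 11 propionate genes or 8 lipl genes. Of 15 desaturases and elongases fat-7 rose, while elo-7 and elo-4 differed by -1.17 and -1.08, both called, with 1 fall left in 6 of the 12 fits without 1 array.

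Few of the probe sets called with Cd were also called without it. Without Cd 371 probe sets were called (1.65% of those tested), 268 of which were not called with Cd. That count was 23 when the 6 arrays without Cd were fitted alone and 168 to 461 when single arrays were left out, so a missing call there does not show a missing difference. Of the 1930 calls with Cd, 45 were called in the same direction without Cd, 58 in the opposite direction and 1827 not at all. The 45 are 2.33% of the calls with Cd and 12.1% of those without Cd. Over all probe sets the 2 differences, which come from separate arrays, correlated at 0.021 (Pearson's r across 22548 probe sets, a description, since probe sets are not independent). The interaction was called at 1229 probe sets (5.45%), and at 913 of the 1930 (47.3%), 326 of the 817 rises and 587 of the 1113 falls. For the other calls a difference between the conditions was not shown.

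**Figure D4:**
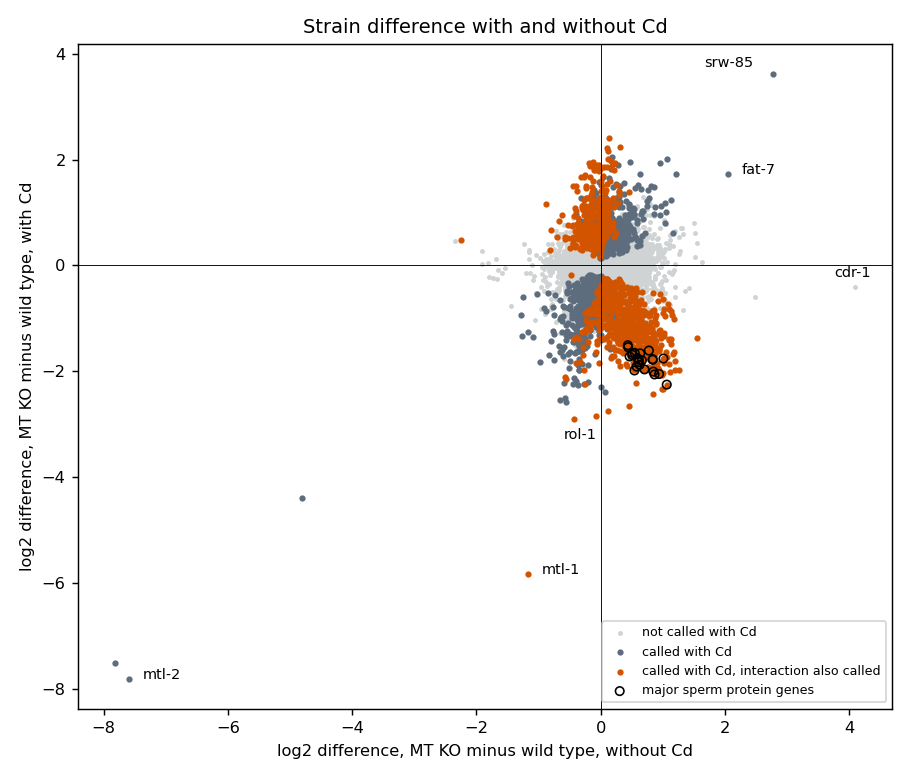
Log2 difference, MT KO minus wild type, of every probe set without Cd (horizontal) and with Cd (vertical). Grey points are not called with Cd, dark points are called with Cd, orange points also have a called interaction, and open circles are the major sperm protein genes. The cloud has no common slope (r = 0.021). The major sperm protein genes sit below 0 with Cd and have a median of 0.63 without it, where none was called.

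A small group of genes separated the strains in both conditions. The largest such rises after srw-85 were fat-7, Y6E2A.4, lips-6, Y41G9A.5, rotr-1, T05E12.6 and C50F7.5. fat-7, a stearoyl-CoA desaturase gene, read 5.65, 5.68 and 5.63 in MT KO with Cd, against 4.02, 3.70 and 4.08 in wild type with Cd. Without Cd it read 8.18, 8.52 and 8.89 in MT KO and 6.65, 6.32 and 6.51 in wild type. The difference was 1.72 ± 0.17 with Cd (adjusted p = 0.000583) and 2.04 without Cd (adjusted p = 0.000863), with no called interaction (adjusted p = 0.607). lips-6, a lipase-like gene, differed by 1.19 with Cd and 1.04 without it.

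The matching falls, besides mtl-2 and mtl-1, were asp-8, clec-41, acd-1, K11G9.5, F09C8.1 and H14A12.5. asp-8, an aspartyl protease gene, read 7.27, 7.36 and 7.50 in MT KO with Cd, against 8.71, 8.67 and 8.74 in wild type with Cd. Its difference was -1.33 ± 0.07 with Cd (adjusted p = 1.91e-05) and -1.26 without Cd. clec-41 gave -1.35 with Cd and -1.08 without it. The acd-1 call with Cd (adjusted p = 0.0245) was lost without MT KO with Cd replicate 1 or 2, at 0.0867 and 0.0831. Leaving out any wild-type array with Cd lost it too, at 0.0505 to 0.0949. The F09C8.1 call with Cd (adjusted p = 0.0347) was also unsteady. Without MT KO with Cd replicate 2 or 3, or wild type with Cd replicate 1 or 3, it stood at 0.0881 to 0.108. It stood at 0.118 with the arrays with Cd fitted alone and 0.0659 with quantile normalization.

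Of the probe sets called in opposite directions, the 8 genes with the largest values for the smaller of their 2 differences were all lower in MT KO with Cd and higher without it: F53B6.4, gskl-2, F32B6.4, msrp-1, C06A8.6, K06A5.2, C27D8.1 and R10E9.2. C06A8.6 read 3.16, 3.57 and 3.52 in MT KO with Cd, against 5.31, 5.69 and 5.48 in wild type with Cd. Without Cd it read 6.31, 6.58 and 6.67 in MT KO, against 5.66, 5.45 and 5.49 in wild type without Cd. Its differences were -2.08 with Cd and 0.99 without Cd, and its interaction was -3.07 (adjusted p = 0.000162). msrp-1 belongs to the listed sperm genes, and gskl-2 encodes a GSK3-like kinase known from sperm.

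Genes beside the deleted loci on chromosome V were read for their own differences, in the gene order of the RefSeq assembly WBcel235. K11G9.5, next to mtl-1, fell by 0.86 in one of its probe sets (adjusted p = 0.00689) with -0.88 without Cd, while its other probe set gave -0.48 without a call. W02F12.2, the second gene on the other side of mtl-1, rose by 1.20 (adjusted p = 0.00611). srh-308, next to mtl-2, read 3.33, 3.48 and 3.31 in MT KO with Cd, against 2.42, 2.43 and 2.49 in wild type with Cd, all below the background level. T08G5.1, on the other side of mtl-2, differed by -0.59 with Cd (adjusted p = 0.151) and by 2.48 without Cd (adjusted p = 0.00121).

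The chromosomes differed in their balance of calls. On the X chromosome 6.21% of 2351 genes were called higher and 2.85% lower in MT KO with Cd, and on chromosome V 4.24% of 4317 genes were called higher and 2.92% lower. On chromosome IV the shares were 3.71% higher and 8.18% lower, and on chromosomes I, II and III 3.05% to 3.28% higher and 6.07% to 6.80% lower. Sperm genes of C. elegans are known to be rare on the X. The part of the sperm and pharynx lists in these shares was not tested.

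**Figure D5:**
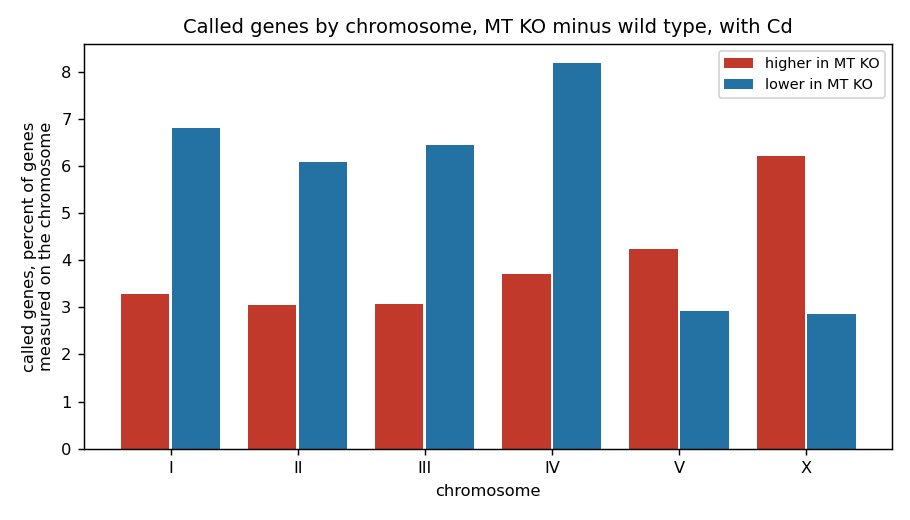
Share of the genes measured on each chromosome that were called higher (red) or lower (blue) in MT KO than in wild type with Cd, in percent. Rises exceed falls on V and X, at 6.21% against 2.85% on X, and falls exceed rises on the other chromosomes, at 8.18% against 3.71% on IV.

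Further families were picked out for their high shares of calls, after their values were seen, so their counts are a description beside the 8.56% of all probe sets. Of 16 idpp genes 8 were called higher and 1 lower, and of 5 idpc genes 4 were called higher. Of 40 ttr genes, which encode transthyretin-like secreted proteins, 9 were higher and 2 lower. Of 7 lpr genes, lipocalin-related proteins of the epithelial surface, 5 were lower and none higher, with a median of -0.92, and of 14 bus genes, which include enzymes of surface glycans, 7 were lower.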

How the data were processed

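RNA of whole L4 larvae was measured on one-colour expression arrays, 200 ng of total RNA per sample, amplified and labelled with biotin, per the labels' protocols. The deposited values are log2 signals per probe set, made by the authors with GCRMA, per the submitters' processing notes; its version and the genome build are not given in the sources used here. That the scale is log2 was read from the values, which run from 1.56 to 14.5. They were used as deposited, with no filter or floor. Of 22625 features 77 control probe sets were set aside.

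The members and gene lists were chosen with earlier results of these data known, and families given no test were picked after seeing values. One mean per group was estimated in limma 3.58.1 (R 4.3.3) over the 12 arrays, with 8 residual and 1.38 prior degrees of freedom, so that the 4 groups of 3 share 1 estimate of the spread. Tests were two-sided, with Benjamini-Hochberg adjustment over all 22548 probe sets. They covered MT KO minus wild type with Cd, the same without Cd, and the interaction of strain and Cd. The fit was tested on simulated data.

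A symbol came from the platform annotation where a probe set had exactly 1 (20766 probe sets, 17118 genes; 887 had several and 895 none), and 20701 matched the RefSeq table of WBcel235. In a list each gene is represented by its brightest probe set, by the mean of the 12 arrays. Genes named are the 15 largest rises and falls whose arrays do not overlap and whose higher mean exceeds the median of all values, 5 metal genes, up to 6 called members of each list by adjusted p, genes called both with and without Cd (8 a kind), and called neighbours of mtl-1 and mtl-2. Other list members named were chosen after their values were seen. Alternatives changed the arrays fitted, the variance prior, the scaling, a filter on dim probe sets, array weights, a 3' minus 5' covariate, the threshold and a replicate block, and left out each array in turn. Precision is limited by having 3 arrays a group.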

Additional observations from a re-analysis of the deposited data

Results flagged for a closer look

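Genes named above whose strain difference itself differed between the conditions, by a called interaction of strain and Cd in limma, were singled out for their size. Each value is the difference with Cd minus the difference without Cd, on the log2 scale. Among the largest rises it was 2.27 for idpp-12, 1.93 for F20B10.3, 2.12 for W08E12.2, 1.90 for nspb-12, 1.80 for abu-15, 2.08 for piit-1, 1.74 for idpp-9, 1.70 for nspb-11, 1.72 for E01G6.1 and 1.93 for abu-8. Among the largest falls it was -4.66 for mtl-1, -2.48 for rol-1, -2.76 for E01G4.6, -2.86 for T16A9.5, -3.27 for F27C1.1, -3.32 for nsph-3.2 and -3.32 for msp-49. For cdr-1 it was -4.51, a size that rests on readings below the background level in wild type without Cd. Among the genes with opposite directions it was -2.997 for F53B6.4, -2.53 for gskl-2, -2.87 for F32B6.4, -2.19 for msrp-1, -3.07 for C06A8.6, -2.47 for K06A5.2, -2.18 for C27D8.1 and -2.53 for R10E9.2.

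The gene lists also held members with a called interaction, as 5.45% of all probe sets did. The sperm lists held the most, all 23 major sperm protein genes and 34 of the 68 other sperm genes. There were 15 among 109 neuropeptide and insulin-like peptide genes, 10 among 61 beta-oxidation genes, 8 among 64 UDP-glucuronosyltransferases and 7 among 70 immune effectors. C-type lectins had 8 of 220, chemoreceptor genes 7 of 1146, F-box and MATH-BATH genes 6 of 395 and nuclear hormone receptors 5 of 254. Each of these 4 shares was below 5.45%. There were 6 each among 19 dpy, rol, sqt and bli collagens and 17 pharynx markers, and 5 each among 49 ABC transporters and 31 germline markers. Lists with 4 were the 45 glutathione S-transferases, 22 eggshell and oocyte markers, 128 numbered collagens and 11 abu genes. Lists with 3 were the 31 replication, 21 moulting, 79 hedgehog-related, 25 neuron and 9 dod genes. The shares of the numbered collagens and hedgehog-related genes were also below 5.45%. Lists with 2 were the cdr and numr, heat shock, proteasome, histone and propionate genes, and a further set of lists, metallothioneins and zinc transporters among them, had 1. The causes of these differences were not tested, and the spread of the arrays without Cd, wild type without Cd replicate 1 in particular, enters each value.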

How the results depend on the processing

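With Cd, the total stayed within 1.5 times of 1930 calls under 8 kinds of refit: the 6 arrays alone (1822, with 1413 of the 1930 called again), an intensity trend (1937), no variance moderation (1367), quantile normalization (1903), median centring (2190), a filter on dim probe sets (2200), array weights (2731) and the 3' minus 5' covariate (1928). No call turned sign in them. At an adjusted p under 0.01 there were 899 calls, 332 higher and 567 lower. Leaving out single arrays gave 1155 to 2139 calls, 447 to 944 higher and 708 to 1195 lower. Of 203 named probe sets called, 152 were called in every setting at the 0.05 threshold and none turned sign. hmt-1, not called, ranged from -0.0031 to 0.31 when single arrays were left out.

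Without Cd, the 371 calls became 23 with those 6 arrays alone (9 higher, 14 lower), 175 without moderation (86 and 89), 586 with the filter (374 higher), 593 with array weights (360 higher) and 91 at 0.01 (38 and 53). Leaving out single arrays gave 168 to 461, 78 to 256 higher and 82 to 205 lower.

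The 1229 interaction calls became 801 without moderation (271 higher), 1869 with array weights (729 and 1140) and 499 at 0.01 (146 and 353). Median centring gave 717 higher, 50.5% of its calls against 38.4% as deposited. Leaving out single arrays gave 281 to 528 higher. The causes were not tested.

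Deviations from the group means were correlated between same-numbered arrays of the 2 strains with Cd, with r of -0.023, 0.039 and 0.093. Such values over whole arrays cannot exclude a shared culture or batch, and the main fit used no pairing. With the replicate block 1876 probe sets were called with Cd, 312 without Cd and 1127 for the interaction. Of the 1930 main calls with Cd, 1637 were called again with the block.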
